A study of Mus musculus with 21 samples.

Results

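The renin-angiotensin system turns a circulating protein, angiotensinogen, into short peptides that set vascular tone, salt retention and the filtration pressure of the glomerulus. Renin, secreted by juxtaglomerular cells of the afferent arteriole, cuts angiotensin I from angiotensinogen, angiotensin-converting enzyme (ACE) trims it to angiotensin II, and angiotensin II acts mainly through the type 1 receptor. Aminopeptidase A and neprilysin, both present on podocytes and on the proximal tubule brush border, break these peptides down or convert them to other forms.

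Transcripts of 9 genes of this system were followed in podocyte fractions of mouse kidney. The members were taken by gene symbol and Entrez Gene number from the count tables, which list 27179 genes, and all 9 were found. They comprise the enzyme renin (*Ren1*) and its substrate (*Agt*), the (pro)renin receptor (*Atp6ap2*), the peptidases *Ace*, *Enpep* and *Mme*, and the receptors *Agtr1a*, *Agtr1b* and *Mas1*. Fractions were prepared from digested cortex of individual wild-type male C57BL/6J mice with antibodies to nephrin and magnetic beads. There were 6 libraries of young untreated mice (4 months), 7 of middle-aged mice given saline and 8 of middle-aged mice given MCC950, a small-molecule inhibitor of the NLRP3 inflammasome. There were 2 intraperitoneal injections a week, of 10 mg/kg MCC950 or of the saline vehicle, for 6 weeks from 18 months of age, so both middle-aged groups were 19.5 months old at collection. The young mice received no injections, so age and the injection schedule cannot be told apart.

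Total counts ranged from 27375870 to 36827823 in young, from 45772937 to 84876399 in saline and from 35440472 to 58247271 in MCC950 libraries, so all saline libraries exceeded all young libraries in depth. Mitochondrial genes took 51.5% to 80.4%, 63.0% to 79.2% and 49.9% to 63.7% of the counts in these groups. All fractions held podocyte transcripts, and also transcripts of tubule, vessel and blood cells. The nephrin gene *Nphs1*, whose protein was the handle for the isolation, had a median of 41.4 CPM (reads of a gene per 1000000 reads of the scaled library) in young, 6.48 in saline and 11.7 in MCC950 libraries. It was lower with age by 2.78 on the log2 scale (a log2 fold change of -2.78, SE 0.35, adjusted p = 2.23e-05) and higher with MCC950 than with saline (log2 fold change 1.18, SE 0.32, adjusted p = 0.0172). *Podxl*, encoding podocalyxin, fell with age (log2 fold change -1.96, adjusted p = 1.04e-05) and had a log2 fold change of 0.21 with MCC950 (adjusted p = 0.504). In bulk samples of this kind, fewer cells of a type and less RNA per cell cannot be told apart.

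The product of the pathway is shown first as sequence. The bases that encode angiotensin I lie in the *Agt* transcript on the minus strand, at chr8:124564450-124564479 of GRCm38, in coding sequence. In the line that follows the capitals mark the 8 codons of angiotensin II, and the lower-case letters mark the 2 codons of the residues that ACE removes from the 10 residues of angiotensin I.
Agt, angiotensin I: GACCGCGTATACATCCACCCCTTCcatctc

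With age, 4 of the 8 members that passed the filter on low counts were lower and 0 were higher. The filter kept 16377 genes, of which 12.4% fell and 12.2% rose with age when calls were made at an adjusted p below 0.05. *Enpep*, *Agtr1a* and *Mme* fell the most, and *Atp6ap2* fell slightly. The libraries of both age groups did not overlap in 3 members (*Enpep*, *Agtr1a* and *Mme*), against a background of 9.37% of genes. With MCC950 against saline, 2 of the 8, *Enpep* and *Agtr1a*, were higher and 0 lower, where 11.9% of all genes were higher and 4.86% lower. No member separated the saline from the MCC950 libraries without overlap, which 1.74% of genes did. When the middle-aged mice given MCC950 were set against young mice, *Enpep*, *Mme*, *Agtr1a* and *Atp6ap2* were lower and *Ace* and *Agt* higher, that is 4 and 2 of 8, where 16.5% and 21.8% of genes were. *Atp6ap2* was the 1 member with no overlap between these groups (background 7.94%). These comparisons share libraries, so the third is not independent of the others. The median log2 fold change of the 8 members was -0.42 with age, 0.35 with MCC950 and -0.32 for MCC950 against young, beside 0.021, 0.0028 and 0.080 over all genes tested.

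**Figure D1:**
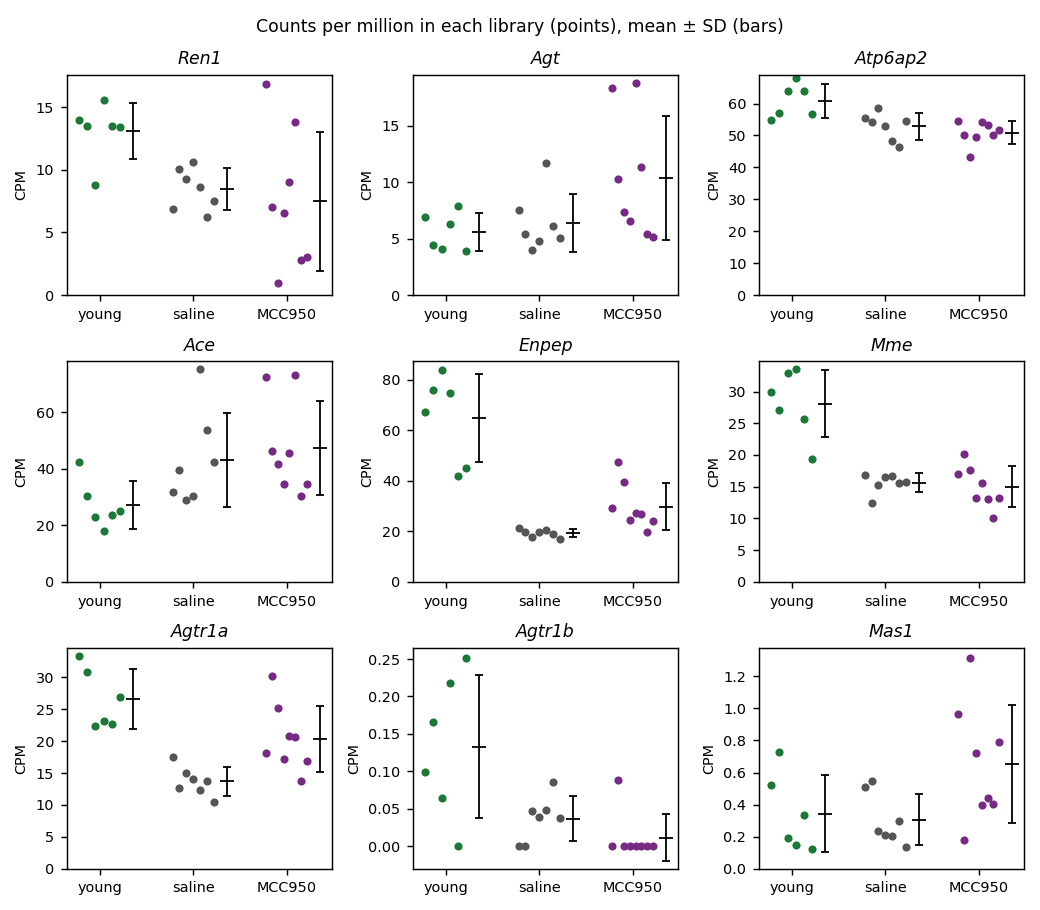
CPM (vertical axis, after TMM scaling of the library size) of the 9 genes in each of the 21 libraries, with 1 point for each mouse and a black bar for the mean ± SD of each group. The saline points of Enpep, Agtr1a and Mme all lie below the young points, Ren1 spreads from 0.954 to 16.8 CPM among the MCC950 libraries, and Agtr1b is close to 0.

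**Figure D2:**
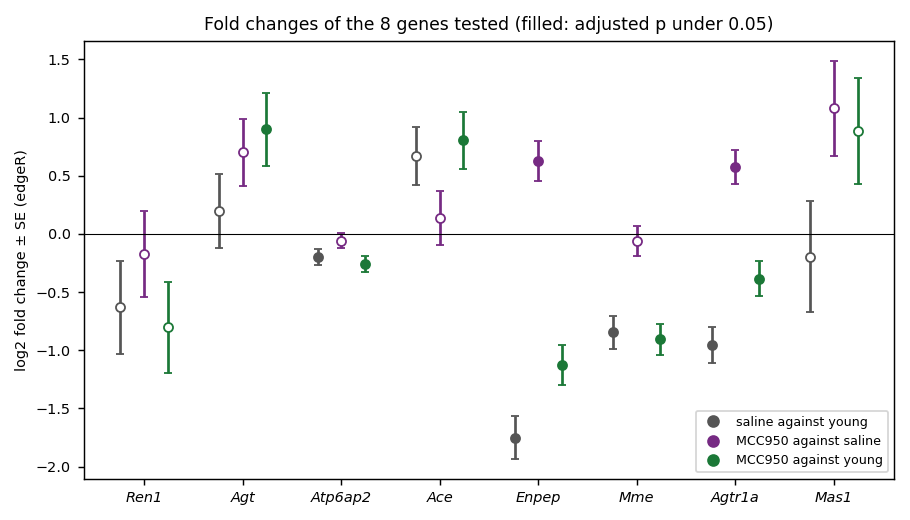
Log2 fold changes (vertical axis) with standard errors from edgeR for the 8 genes that passed the filter, in 3 comparisons shown by colour. Filled points have an adjusted p under 0.05, which with MCC950 against saline is the case for Enpep (0.63) and Agtr1a (0.57).

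Renin is the enzyme that starts the cascade, and C57BL mice carry a single renin gene, *Ren1* (chr1:133350510-133360325). Its level was 8.81, 13.5 and 15.6 CPM (lowest, median and highest) in young libraries. In saline libraries it was 6.22, 8.60 and 10.6 CPM. In MCC950 libraries it was 0.954, 6.79 and 16.8 CPM, a 17.6-fold range within a group, against 1.77-fold in young and 1.71-fold in saline libraries. MCC950 replicate 3 held 45 reads of *Ren1*, while the other MCC950 libraries held 142 to 854. The lowest *Ren1* of this group was in MCC950 replicates 3, 7 and 8 (0.954, 2.76 and 3.04 CPM). The same libraries had its lowest *Acta2*, smooth muscle actin (4.18, 4.41 and 6.87 CPM). The cause of the spread was not tested. Of the 7 saline libraries, 4 lay below all young libraries. The log2 fold change of *Ren1* was -0.63 with age (SE 0.40, adjusted p = 0.266), -0.17 with MCC950 (SE 0.37, adjusted p = 0.789) and -0.80 for MCC950 against young (SE 0.39, adjusted p = 0.105). A fit of the young and saline libraries alone, in which the spread of the MCC950 libraries does not enter, gave the same fall of 0.63 with age at an adjusted p of 0.00624. Without MCC950 replicate 1, *Ren1* was lower in MCC950 than in young libraries (log2 fold change -1.08, adjusted p = 0.0278).

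Genes used here as markers of renin cells, besides renin, moved with age. *Gja5*, the connexin that couples juxtaglomerular cells, fell by 1.05 on the log2 scale (SE 0.17, adjusted p = 0.000154). *Akr1b7*, an aldo-keto reductase of renin cells, fell by 1.02 (SE 0.36, adjusted p = 0.0432) and *Adcy5*, an adenylyl cyclase of these cells, by 0.91 (SE 0.24, adjusted p = 0.00782). The summed level of these 3 markers was 20.04 to 34.99 CPM in young, 9.00 to 17.0 in saline and 8.79 to 17.0 in MCC950 libraries. Most of this sum was *Gja5* (median 21.7 CPM in young, 10.9 in saline and 10.9 in MCC950 libraries), while *Akr1b7* held 2 to 40 reads per library. The endothelium score also fell with age, by 0.95, and which cells held the *Gja5* reads was not tested. None of the 3 markers passed the test with MCC950 by edgeR (adjusted p from 0.288 for *Akr1b7* to 0.961 for *Gja5*). Beside them, *Ren1* had a fall with age that did not pass the test in the fit of all libraries. With the score of these markers as a covariate (a fit added later), *Ren1* had a log2 fold change of -0.013 with age (SE 0.64, adjusted p = 0.996). The scores of young (1.76 to 2.36) and saline libraries (0.79 to 1.54) did not overlap, so score and age cannot be told apart there. Within groups *Ren1* had a slope of 0.64 on this score (SE 0.51, adjusted p = 0.794).

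Angiotensinogen, encoded by *Agt* (chr8:124556534-124569706), is made mainly by the liver and in the kidney by the proximal tubule. Its level was 3.93, 5.36 and 7.92 CPM (lowest, median and highest) in young libraries, 3.96, 5.45 and 11.7 in saline and 5.13, 8.81 and 18.8 in MCC950 libraries. The highest values belonged to MCC950 replicates 1 and 5 and saline replicate 5, and the groups overlapped. The log2 fold change was 0.20 with age (SE 0.32, adjusted p = 0.701), 0.70 with MCC950 (SE 0.29, adjusted p = 0.0989) and 0.90 for MCC950 against young (SE 0.31, adjusted p = 0.0283). *Agt* came under 0.05 with MCC950 when saline replicate 5 was left out (log2 fold change 0.92, adjusted p = 0.0331), and without it the change with age turned to -0.023 (adjusted p = 0.966). The call against young was lost without young replicate 2, 3 or 6 or MCC950 replicate 1 or 5 (adjusted p from 0.0642 to 0.0696).

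*Atp6ap2* (chrX:12587801-12617049) encodes the (pro)renin receptor, which is also an accessory subunit of the vacuolar proton pump. It had the highest level per kilobase of exon of the 9 members in every group, 23.2 ± 1.98 CPM per kilobase in young (SD, n = 6), 20.2 ± 1.61 in saline (SD, n = 7) and 19.4 ± 1.40 in MCC950 libraries (SD, n = 8). Its level was 54.9, 60.5 and 67.9 CPM (lowest, median and highest) in young libraries, 46.4, 54.2 and 58.6 in saline and 43.2, 50.8 and 54.5 in MCC950 libraries. All 8 MCC950 libraries and 5 of the 7 saline libraries lay below every young library. The fall with age was 0.20 on the log2 scale (SE 0.07, adjusted p = 0.0419), a 1.15-fold difference. It was not called without young replicate 3, 4 or 5 or saline replicate 4, 5, 6 or 7 (adjusted p from 0.0554 to 0.102), nor in the fit of these 2 groups alone (0.0708), without a filter (0.0787) or with at least 10 counts in every library (0.0516). MCC950 libraries were lower than young by 0.26 (SE 0.07, adjusted p = 0.00563) and differed from saline by -0.06 (SE 0.07, adjusted p = 0.578).

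*Ace* (chr11:105967945-105989964) encodes angiotensin-converting enzyme, a peptidase of endothelium and of the proximal tubule brush border. Its level was 17.9, 24.4 and 42.4 CPM (lowest, median and highest) in young libraries, 28.99, 39.4 and 75.1 in saline and 30.5, 43.6 and 73.1 in MCC950 libraries. Saline replicate 5 and MCC950 replicates 1 and 6 held the highest values, and the groups overlapped. The log2 fold change with age was 0.67 (SE 0.25, adjusted p = 0.0560). Of 14 fits with other settings, 5 brought it under an adjusted p of 0.05. Among them were DESeq2 (0.0347), the young and saline libraries alone (0.0492) and libraries thinned to equal depth (0.0466). So did 7 of the 21 fits that left out a library (adjusted p from 0.0218, without young replicate 1, to 0.0495). These were the fits without young replicate 1, saline replicate 1, 3 or 4 or MCC950 replicate 1, 6 or 7. Among the 21 the change was weakest without saline replicate 5, at 0.48 (adjusted p = 0.145). MCC950 and saline libraries differed by 0.13 (SE 0.23, adjusted p = 0.729). MCC950 libraries were 1.75-fold higher than young ones (log2 fold change 0.80, SE 0.25, adjusted p = 0.0143). The antisense gene *Gm11651* lies over exons of *Ace* on the opposite strand, and 3.77% of the 50-base words of *Ace* transcripts occur in it. The strand setting of the counting is not given in the sources used here, so reads of both genes cannot be told apart.

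*Enpep* (chr3:129269175-129332720) encodes aminopeptidase A, which takes the first residue from angiotensin II. It was the member with the largest change with age. Its level was 42.0, 71.0 and 83.9 CPM (lowest, median and highest) in young libraries. In saline libraries it was 16.9, 19.5 and 21.2 CPM, and in MCC950 libraries 19.7, 26.9 and 47.5 CPM. All 7 saline libraries lay below every young library, within a 1.25-fold range of each other, and 7 of the 8 MCC950 libraries also lay below every young library. The fall with age was 3.37-fold (log2 fold change -1.75, SE 0.18, adjusted p = 5.42e-06). The study's methods set a threshold on DESeq2 results, a change above 2-fold together with a p below 0.05 before adjustment. Applied here to the edgeR fit, it called *Enpep* as the 1 member with age, where 6.96% of all genes were called. Of the 8 MCC950 libraries, 7 lay above every saline library, and the difference was 1.54-fold (log2 fold change 0.63, SE 0.17, adjusted p = 0.0166). MCC950 libraries stayed 2.18-fold lower than young ones (log2 fold change -1.12, SE 0.17, adjusted p = 6.06e-05). Each of these calls held in all 21 fits that left out a library, with an adjusted p of at most 0.0396 for MCC950 against saline.

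*Mme* (chr3:63241537-63386030) encodes neprilysin, a peptidase that shortens angiotensin I and degrades natriuretic peptides. Its level was 19.3, 28.5 and 33.6 CPM (lowest, median and highest) in young libraries, 12.5, 15.8 and 16.8 in saline and 10.0, 14.4 and 20.2 in MCC950 libraries. Every saline library was below every young one, and saline and MCC950 libraries overlapped. The fall with age was 1.80-fold (log2 fold change -0.85, SE 0.14, adjusted p = 0.000211). MCC950 and saline libraries differed by -0.06 (SE 0.13, adjusted p = 0.788). MCC950 libraries were 1.88-fold lower than young ones (log2 fold change -0.91, SE 0.13, adjusted p = 4.06e-05).

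Neprilysin and aminopeptidase A were also set against each other within each library, a comparison chosen after their values were seen. The mean log2 ratio of *Enpep* to *Mme* CPM was 1.18 ± 0.26 in young (SD, n = 6), 0.31 ± 0.17 in saline (SD, n = 7) and 0.97 ± 0.17 in MCC950 libraries (SD, n = 8). The lowest young ratio, 0.71, was above the highest saline ratio, 0.64, and so was the lowest MCC950 ratio, 0.78. The differences between group means were -0.88 with age and 0.66 with MCC950, and they are given as a description with no test, since the pair was picked for its values.

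**Figure D3:**
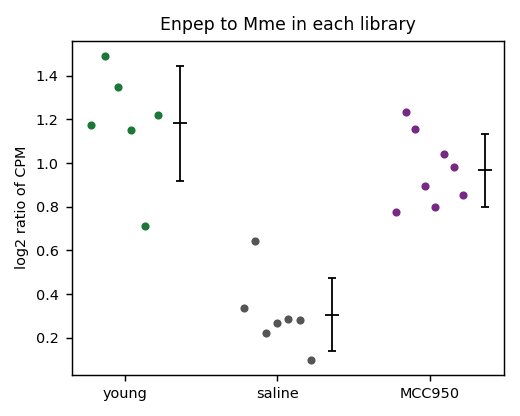
Log2 ratio of CPM (vertical axis) of Enpep to Mme in each library, with 1 point for each mouse and bars for the mean ± SD of each group. The Enpep to Mme ratio of all 7 saline libraries lies below the young and the MCC950 ratios, with group means of 1.18 (young), 0.31 (saline) and 0.97 (MCC950).

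*Agtr1a* (chr13:30336441-30382867) encodes the main type 1 receptor of angiotensin II in rodent kidney, found on vascular smooth muscle, mesangial cells, proximal tubule and podocytes. Its level was 22.3, 25.0 and 33.4 CPM (lowest, median and highest) in young libraries. In saline libraries it was 10.4, 13.8 and 17.4 CPM, and in MCC950 libraries 13.8, 19.4 and 30.2 CPM. Every saline library was below every young one, and 5 of the 8 MCC950 libraries were above every saline one. The fall with age was 1.94-fold (log2 fold change -0.96, SE 0.15, adjusted p = 0.000183). *Agtr1a* was 1.49-fold higher with MCC950 than with saline (log2 fold change 0.57, SE 0.14, adjusted p = 0.0129). Both calls held in all 21 fits that left out a library, with an adjusted p of at most 0.0317 for MCC950. Against young mice the MCC950 libraries were lower by 0.38 (SE 0.15, adjusted p = 0.0468). That call was lost without young replicate 1 or 2, saline replicate 5 or MCC950 replicate 1, 4, 5, 6, 7 or 8 (adjusted p from 0.0511 to 0.118).

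*Agtr1b* (chr3:20314473-20367177) encodes the second rodent type 1 receptor, which is known from adrenal and pituitary. It held 0 to 6 reads per library and did not pass the filter, so it was not tested. It had 0 reads in 1 of 6 young, 2 of 7 saline and 7 of 8 MCC950 libraries, and the remaining MCC950 library, replicate 2, had 4. Of its 50-base words, 1.55% also occur in *Agtr1a*, so part of so small a number of reads may be shared. Its mean level was 0.133 CPM in young, 0.0369 in saline and 0.0111 in MCC950 libraries. Whether the groups differ is left undecided at so few reads.

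*Mas1* (chr17:12841079-12868143) encodes the Mas receptor, on which a shorter angiotensin peptide acts. It held 3 to 62 reads per library. Its level was 0.125, 0.265 and 0.729 CPM (lowest, median and highest) in young libraries, 0.133, 0.236 and 0.549 in saline and 0.178, 0.581 and 1.31 in MCC950 libraries. The groups overlapped, and 4 of 8 MCC950 libraries were above every saline library. The log2 fold change was -0.20 with age (SE 0.47, adjusted p = 0.803) and 1.08 with MCC950 (SE 0.41, adjusted p = 0.0728). *Mas1* was the 1 member past the methods' threshold, applied to the edgeR fit, with MCC950 (background 2.71%). It came under an adjusted p of 0.05 with DESeq2 (0.0499) and without MCC950 replicate 2 (0.0367), and reached 0.159 without MCC950 replicate 3.

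The order of the members, compared as mean CPM per kilobase of exon, changed below *Atp6ap2*. In young libraries *Enpep* followed (13.8 ± 3.69 CPM per kilobase, SD, n = 6), then *Agtr1a* (9.53 ± 1.68), *Ren1* (7.91 ± 1.36), *Ace* (5.12 ± 1.61), *Agt* (2.96 ± 0.885) and *Mme* (2.43 ± 0.459). In saline libraries *Ace* came next to *Atp6ap2* (8.15 ± 3.12 CPM per kilobase, SD, n = 7) and *Enpep* stood at rank 5 (4.09 ± 0.314). In MCC950 libraries *Ace* (8.96 ± 3.15 CPM per kilobase, SD, n = 8), *Agtr1a* (7.31 ± 1.87) and *Enpep* (6.33 ± 1.95) followed *Atp6ap2*. *Atp6ap2* did not overlap with its neighbour in any group. From the second to the sixth place, the ranges of adjacent members overlapped in all groups, while members further apart could be separated. Per kilobase, every young value of *Enpep* (8.94 to 17.8 CPM) was above every young value of *Ace* (3.38 to 8.01 CPM), and every saline value of *Ace* (5.48 to 14.2 CPM) was above every saline value of *Enpep* (3.59 to 4.51 CPM). *Mas1* and *Agtr1b* were last in every group, at most at 0.249 CPM per kilobase.

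Other genes of the system were taken from lists of proteases, peptidases, receptors and partners, and the mineralocorticoid arm. Of these 22 genes, 16 passed the filter. With age, 2 were higher and 5 lower, with MCC950, 4 were higher and 1 lower, and for MCC950 against young 6 were higher and 5 lower. Over all genes the shares higher and lower were 12.2% and 12.4%, 11.9% and 4.86%, and 21.8% and 16.5%. Their median log2 fold change was -0.012 with age, 0.034 with MCC950 and 0.19 for MCC950 against young. Among the 11 peptidases that cleave angiotensins, 10 were tested. *Ctsa*, a lysosomal carboxypeptidase, and *Prcp*, which removes the last residue of angiotensin II, rose with age (log2 fold changes 0.62 and 0.55, adjusted p = 0.000321 and 0.00477). *Anpep*, aminopeptidase N, and *Thop1*, a cytosolic endopeptidase, rose with MCC950 by 0.42 and 0.37 (adjusted p = 0.0451 and 0.0152).

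*Cltrn*, encoding collectrin, a membrane protein of the proximal tubule and collecting duct, fell with age (log2 fold change -0.64, adjusted p = 0.0468) and was higher with MCC950 (0.73, adjusted p = 0.0259). *Klk1*, tissue kallikrein of the connecting tubule, was the 1 of 4 other proteases tested, and it fell with age (-0.67, adjusted p = 0.00822). All 3 genes of the mineralocorticoid arm fell with age: *Nr3c2*, the receptor (-0.57, adjusted p = 0.00265), *Hsd11b2*, the enzyme that keeps glucocorticoids from it (-0.82, adjusted p = 0.00932), and *Sgk1*, a kinase it induces (-1.04, adjusted p = 0.000142). *Nr3c2* was lower again with MCC950 than with saline (-0.45, adjusted p = 0.0149). The collecting duct score, of cells in which this arm works, was also lower with age, by 0.57 (exact two-sided permutation test, adjusted p = 0.00812), and its part in these changes was not tested.

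Markers of the cell types in the fraction moved with both comparisons, and their scores (the mean log2 CPM of a list) stand beside the members here. The score of 12 podocyte markers was 4.57 to 5.79 in young, 2.54 to 3.93 in saline and 3.59 to 4.52 in MCC950 libraries. It fell with age by 1.81 (exact two-sided permutation test, adjusted over 22 tests p = 0.00256) and was higher by 0.55 with MCC950 (adjusted exact p = 0.0226). Of these 12 markers, edgeR called 11 lower with age and 5 higher with MCC950, where 12.4% and 11.9% of all genes were. The summed level of the podocyte list was 703 to 1599 CPM in young, 267 to 515 in saline and 354 to 614 in MCC950 libraries. The score of 12 proximal tubule markers differed by -0.18 with age (adjusted exact p = 0.580) and was higher by 0.84 with MCC950 (adjusted exact p = 0.00812). Its summed level was 1693 to 7200 CPM in young, 1917 to 4614 in saline and 2836 to 8428 in MCC950 libraries. Of the 12 proximal tubule markers, edgeR called 0 with age and 6 higher with MCC950. The scores of mesangium and smooth muscle, endothelium and juxtaglomerular cells fell with age by 1.06, 0.95 and 0.98 (adjusted exact p = 0.00256 for each) and none passed the test with MCC950 (adjusted exact p = 0.342, 0.130 and 0.342). The scores of immune cells rose with age, by 1.96 for B and plasma cells, 1.20 for T cells and 1.03 for macrophages (adjusted exact p = 0.00256, 0.00641 and 0.0114), and did not pass the test with MCC950 (-0.55, -0.68 and -0.34, adjusted exact p = 0.130, 0.120 and 0.342). Of the markers in these lists, 3 of 5, 3 of 5 and 4 of 8 were called higher with age by edgeR. In the B and plasma cell list *Jchain* and *Mzb1* rose most (3.64 and 2.85), and *Cd79b* was called (0.99). *Cd79a* and *Ms4a1* were not called (adjusted p = 0.0682 and 0.492 by edgeR). The part of immune cells in the members' values was not tested. No marker of these 8 lists was at 0 in all libraries of a group.

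**Figure D4:**
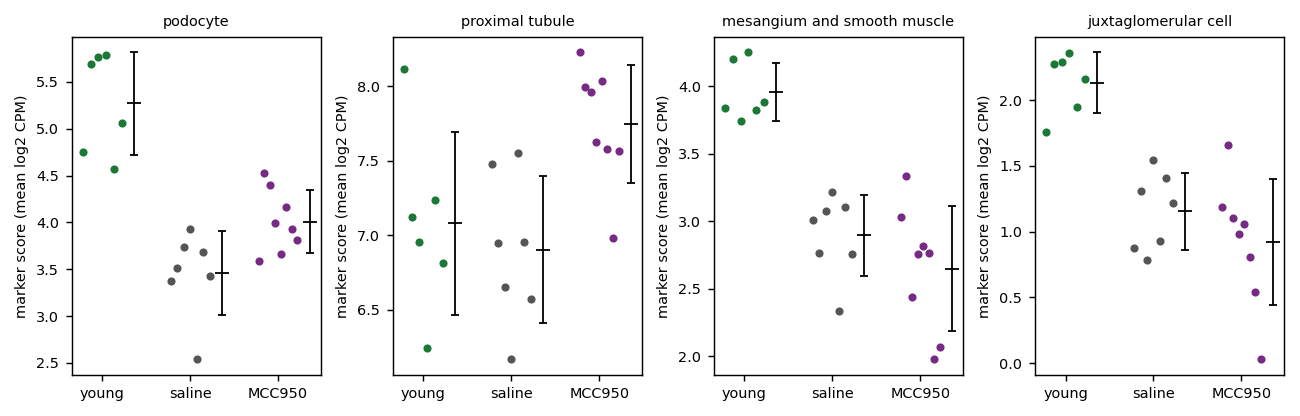
Marker scores (vertical axis, mean log2 CPM of a list of markers) of 4 cell types in each library, with 1 point for each mouse and bars for the mean ± SD of each group. The podocyte score has no overlap between young (4.57 to 5.79) and saline libraries (2.54 to 3.93). The proximal tubule score has its highest mean in MCC950 libraries (7.75, range 6.98 to 8.23), which overlap with young (6.25 to 8.11) and saline libraries (6.17 to 7.55).

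Within groups, the members followed these scores to different degrees. On the proximal tubule score, *Agt* rose by 0.75 and *Ace* by 0.65 on the log2 scale for each unit of the score (SE 0.21 and 0.16, adjusted p = 0.00880 and 0.00368), where 31.9% of all genes had a slope in either direction. These were the 2 of 8 members called on this score, and over all genes 17.8% had a positive and 14.1% a negative slope. The count thus does not set the members apart from other genes. *Agtr1a* had a slope of 0.30 on the proximal tubule score (adjusted p = 0.0511). On the podocyte score 0 of 8 members were called by the adjusted test, where 3.10% of genes were. An unadjusted p under 0.05 was seen for 3, namely *Agt* (-0.76), *Ace* (-0.50) and *Enpep* (0.40). On the mesangium and smooth muscle score 0 of 8 were called by edgeR, where 0.134% of genes were. At an unadjusted p under 0.05 there were 4, with the steepest slope in *Ren1* (1.24, adjusted p = 0.375). On the endothelium score 0 were called, where 1.96% of genes were, and 2 had an unadjusted p under 0.05, *Enpep* (0.74) and *Agt* (-1.15). These shares are at an adjusted p. The share of all genes at an unadjusted p was not taken for slopes or covariate fits, so the unadjusted counts have no background to be read against.

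When a score entered the fit, the calls of the members changed. With the podocyte score, 0 members were called with age and 3 had an unadjusted p under 0.05 (*Enpep* at -0.98, *Agtr1a* at -0.64 and *Agt* at -1.23), while all genes called with age went from 4034 to 11. The podocyte scores of young and saline libraries did not overlap, so score and age cannot be told apart in this fit. With the proximal tubule score, all 4 calls with age held (*Enpep* at -1.73 and *Agtr1a* at -0.89) and *Ace* joined them (log2 fold change 0.80, adjusted p = 0.00374). With the same score both calls with MCC950 were lost: *Enpep* was at 0.46 (adjusted p = 0.210) and *Agtr1a* at 0.31 (adjusted p = 0.280). That score was itself higher with MCC950 by 0.84, with ranges that overlapped in part (6.17 to 7.55 in saline, 6.98 to 8.23 in MCC950 libraries). Score and treatment can thus be told apart only in part, and the cause of the lost calls was not tested. With the podocyte score, *Agtr1a* was higher with MCC950 (0.47, adjusted p = 0.0473), *Enpep* was at 0.37 (adjusted p = 0.127) and *Agt* was called (1.15, adjusted p = 0.00583). With the mesangium and smooth muscle, endothelium or juxtaglomerular score, *Enpep* and *Agtr1a* stayed called with MCC950 (adjusted p from 0.00440 to 0.0125). *Enpep* was the 1 member called with age with the mesangium and smooth muscle score (-1.29, adjusted p = 0.0382) or the juxtaglomerular score (-1.23, adjusted p = 0.0209), where over all genes 58 were higher and 46 lower, and 66 higher and 58 lower. With the endothelium score, edgeR called 0 members (4 at an unadjusted p under 0.05) and 4 of all genes. The mesangium and smooth muscle, endothelium and juxtaglomerular scores, like the podocyte score, had no overlap between young and saline libraries, so the same limit holds for these fits. For MCC950 against young, the proximal tubule score ended the calls of *Ace* (0.40, adjusted p = 0.145) and *Agt* (0.32, adjusted p = 0.424).

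**Figure D5:**
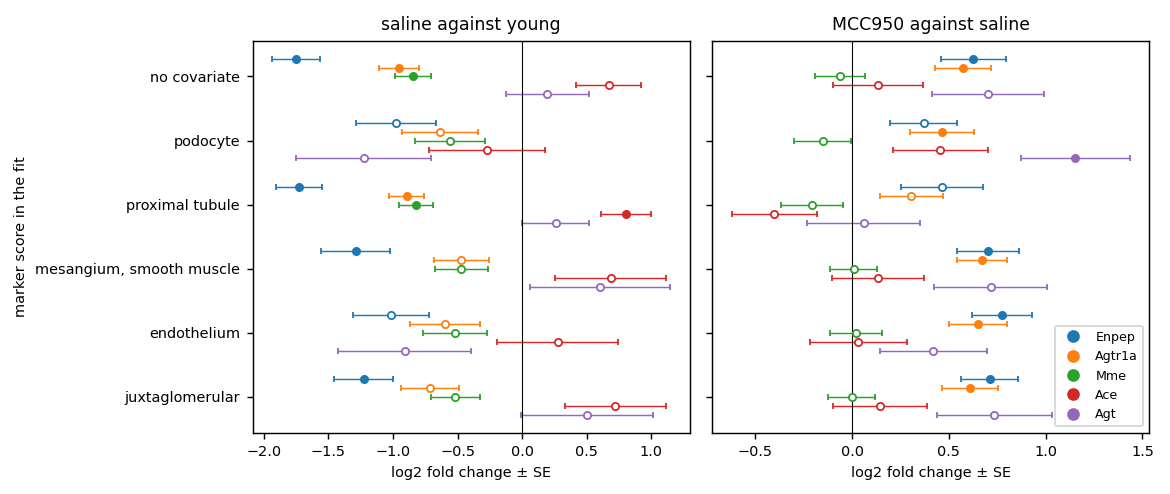
Log2 fold changes (horizontal axis) with standard errors of 5 genes with age (left) and with MCC950 (right), in the fit without a covariate and with each of 5 marker scores as a covariate (rows). Filled points have an adjusted p under 0.05. Enpep stays below 0 with age in every row, at -0.98 with the podocyte score, and the changes of Enpep and Agtr1a with MCC950 lose their call with the proximal tubule score.

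The genes most like each member were found by Pearson's r of log2 CPM over the 21 libraries, each centred on its group's mean, among 8318 genes with an average of at least 3 log2 CPM. The libraries share depth and cell composition, so these values describe and carry no test. *Ren1* was closest to *Acta2*, smooth muscle actin (r = 0.86, Spearman's rho = 0.83), followed by *Morf4l1* and *Cox7a2l*. *Acta2* itself fell with age by 1.12 on the log2 scale (adjusted p = 0.00365). Its lowest value, 4.18 CPM, was in MCC950 replicate 3, which also held the lowest *Ren1*. *Agt* was closest to *Oplah* (r = 0.89), *Bnip3* and *Gm10681*, and *Ace* to *Ldlrad3* (r = 0.85), *Gsr* and *Ttc7b*. *Enpep* was closest to *Pard3b* (r = 0.89), *Arhgef12* and *Cpeb4*, and *Mme* to *Tshz1* (r = 0.91), *Mpp5* and *Ubxn2a*. *Agtr1a* was closest to *Btrc* (r = 0.81), *Fbxo10* and *Orc3*, *Atp6ap2* to *Cept1* (r = 0.87), *Wrn* and *Casd1*, and *Mas1* to *Rnf185* (r = 0.72), *Nt5c3* and *Tbc1d22b*.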

How the data were processed

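Messenger RNA of podocyte fractions of individual mice was sequenced with TruSeq libraries. The authors trimmed reads with Trim Galore, aligned them to mm10 with Bowtie2 and made the deposited whole-number counts per gene with featureCounts. The annotation release, strand setting and treatment of reads with several alignments are not given in the sources used here. The tables list 27179 Entrez Gene numbers, 25275 of which were named from RefSeq (GRCm38.p6). Gene positions, exon lengths and the bases of *Agt* are from GENCODE on GRCm38. Between 67.1% and 73.8% of counts from 1 to 20 were even, and whether a read pair counted as 2 is not given. The authors' normalized table, which covers 20 libraries, was not used here. Groups came from the labels, and all 6 young libraries were used. No library duplicated another (lowest chi-square per degree of freedom 16.5 over 210 pairs).

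The test was the quasi-likelihood F test of edgeR 4.0.16 under R 4.3.3, on counts of all 3 groups in 1 fit (TMM, filterByExpr by group), with Benjamini-Hochberg adjustment over 16377 genes and a threshold of 0.05. SE is the size of a log2 fold change over the root of its F statistic. CPM use the TMM-scaled library size, with a prior count of 2 on the log2 scale. A slope on a marker score was fitted with the groups as covariates, and this readout was chosen after values were seen. For marker scores, group labels were permuted exactly (two-sided) in Python 3.11.15, checked against scipy 1.17.1, and the edgeR workflow was tested on simulated data. DESeq2 1.42.0, the tool the methods name, was 1 of 13 other settings tried. Another 2 were added after seeing the data, and each library was left out in turn. Named genes are the 9 members, other genes of the system called with age or MCC950, markers of the cell types, and the 3 genes most correlated with each member. A few genes that enter the counts are not reported here by name. The members and lists were chosen with earlier results of these data known.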

Additional observations from a re-analysis of the deposited data

Results flagged for a closer look

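In the 27 groups of values tested (9 members in 3 groups of libraries), 4 had a library whose gap to its nearest neighbour passed Dixon's 95% critical value for its group size, where chance flags about 1 in 20. *Ren1* was lowest in young replicate 3, at 8.81 CPM, with the next young library at 13.4 CPM. *Mme* was lowest in saline replicate 2, at 12.5 CPM, with the next saline library at 15.3 CPM. *Atp6ap2* was lowest in MCC950 replicate 3, at 43.2 CPM, and the same library held the lowest *Ren1* of its group. *Agtr1b* was highest in MCC950 replicate 2, at 0.0888 CPM, which is 4 reads, with 0 in the other MCC950 libraries.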

How the results depend on the processing

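Depth limited *Agtr1b* (0 to 6 reads) and *Mas1* (3 to 62 reads). The 4 calls with age and 2 with MCC950 changed most with marker scores as covariates, and the cause was not tested. Members called with age numbered 0 with the podocyte or endothelium score or with podocyte and proximal tubule scores together (3, 4 and 0 at an unadjusted p under 0.05). They numbered 1 with the mesangium or juxtaglomerular score or by the methods' 2-fold threshold, applied to the edgeR fit (p below 0.05 before adjustment). With MCC950 they numbered 0 with the proximal tubule score or both scores together (1 each unadjusted), and 1 by the 2-fold threshold. Against young they numbered 0 with the podocyte, mesangium, endothelium or juxtaglomerular score (2, 1, 1 and 3 unadjusted), 2 with both together and 1 by the 2-fold threshold. Leaving out a library gave 3 to 5 members with age, 2 to 3 with MCC950 and 4 to 6 against young. The unadjusted counts, here and below, have no share of all genes beside them.

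Of the other genes of the system, 7 were called with age, 5 with MCC950 and 11 against young. With age they numbered 0 with the podocyte, mesangium, endothelium or juxtaglomerular score or both scores together (6, 5, 5, 6 and 1 unadjusted) and 1 by the 2-fold threshold. With MCC950 they numbered 2 with the proximal tubule or endothelium score, 1 with both together, 3 in thinned libraries, 0 by the 2-fold threshold and 2 to 5 when a library was left out, with 2 without saline replicate 3, 4, 6 or 7 or MCC950 replicate 1 or 5. Against young they numbered 2 with the podocyte score, 0 with the mesangium, endothelium or juxtaglomerular score (6, 3 and 4 unadjusted), 5 with both together and 3 by the 2-fold threshold.

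Directions turned as follows, none with an adjusted p under 0.05. With age, the podocyte score gave *Agt* -1.23 and *Ace* -0.27, the endothelium score *Agt* -0.91, the mesangium score *Ren1* 0.74 and the proximal tubule score *Mas1* 0.0063. Both scores together gave *Agt* -0.55, *Agtr1a* 0.057 and *Mas1* 1.09, and leaving out a library gave *Agt* -0.023 (without saline replicate 5) to 0.30 and *Mas1* -0.42 to 0.16 (without young replicate 2). With MCC950, the proximal tubule score gave *Ace* -0.40 and *Atp6ap2* 0.0047, and both scores together gave *Ace* -0.26, *Agtr1a* -0.18, *Enpep* -0.31, *Atp6ap2* 0.039 and *Mas1* -0.043. *Mme* was 0.0078 with the mesangium score, 0.019 with the endothelium score and -0.13 to 0.0073 (without MCC950 replicate 7) when a library was left out. Against young, the mesangium score gave *Ren1* 0.67 and *Agtr1a* 0.20, the endothelium score *Agt* -0.49 and *Agtr1a* 0.052, the podocyte score *Agt* -0.075 and both together *Agt* -0.052.

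Libraries of the same replicate number correlated from -0.061 to 0.35 (young and saline, 6 pairs) and from -0.14 to 0.33 (saline and MCC950, 7 pairs), so the numbers were not used as pairs. With replicate number as a block, 4 members were called with age (*Ace* gained at an adjusted p of 0.0233, *Atp6ap2* lost at 0.0825), 3 with MCC950 (*Agt* gained at 0.00329) and 5 against young (*Agtr1a* lost at 0.0841).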
